A study of Mus musculus with 4 samples.

Results

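The regions described here are the Elavl crosslinking peaks that lie at the end of long genes. A peak was taken when it overlapped the span of exactly 1 protein-coding gene of 50 to 500 kb in the mouse assembly GRCm38 and its midpoint lay within 5 kb of the gene end, read on the peak's own strand. Of the 105110 peaks in both deposited lists, 10069 met this rule. They were 8003 of the 97775 cortex peaks and 2066 of the 7335 N2A peaks. They are called gene-end peaks below, and the 41779 further peaks of the same class of genes are called other peaks.

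The study mapped Elavl proteins on RNA by HITS-CLIP, in which ultraviolet light links a protein to the RNA it touches and the fragments left on the precipitated protein after partial RNase digestion are sequenced. The cortex group holds 3 mouse brain samples made with a degenerate linker of 25 nt, and they share 1 peak list whose name mentions 2 months, without saying of what. The N2A group is 1 sample of a mouse neuroblastoma cell line, made with a linker of 7 nt and listed separately. The sources used here give no genotype, strain or treatment, no age beyond that name, and neither the antibody nor the family member it binds. Tissue, number of samples and linker therefore all differ between the lists and cannot be told apart. The lists have no column per sample, so no replicate spread could be computed and no test between the groups was run. Depth is unknown, and each peak is 50 to 51 nt long with 1 p-value, the authors' own value, which is used only to rank peaks within a list. Shares carry Wilson 95% intervals that cover counting error only, since peaks of 1 gene, and genes of 1 list, are not replicates and PCR products are not independent molecules.

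The Elavl, or Hu, proteins are RNA-binding proteins that recognise U-rich and AU-rich RNA. The family holds Elavl1 (HuR), found in most cells, and Elavl2, Elavl3 and Elavl4, found mainly in neurons, where they are known to affect splicing when bound in introns and mRNA stability and translation when bound in 3′ UTRs. The last stretch of a gene usually holds the 3′ UTR, which follows the stop codon and carries many regulatory elements, while most of the span of a long gene is intron. Exons and UTRs were not annotated here, so distance is to the end of the gene's span and a gene-end peak need not lie in a 3′ UTR.

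Sequence could be read for a single gene-end peak, because 1 of them lay wholly within a RefSeq promoter window (GRCm38.p6) and only 2 touched one. It is shown because it is the only one that could be read, and 1 weak peak says nothing of the others. It belongs to Jam2, which encodes a junctional adhesion molecule, and was a weak cortex peak, with a p of 0.0843, 3.56 kb before the gene end. The window is that of the predicted gene Gm46557. The 30 bases printed, the middle of the peak, are chr16:84822801-84822830 on the plus strand, 5′ to 3′, with the longest run of A and T, 14 nt, in capitals.
Jam2 cortex peak, middle: aaaatccTTTATAATTTAAAAgaattccag

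Peaks were packed at the gene ends in both lists. Within the last 1 kb of these genes lay 2990 cortex peaks and 793 N2A peaks. At 20 to 50 kb from the end, where a gene of this class still has sequence, the lists held 314 and 6.57 peaks per kb, summed over all genes. The last 1 kb was thus 9.52 times as dense as this interior stretch in cortex and 121 times as dense in N2A. Density declined with distance but at 4 to 5 kb was still 2.23 times the interior value in cortex and 19.9 times in N2A. The rule sets the 5 kb limit, and the counts show no step at it. Just inside it, at 4.9 to 5 kb, the cortex list held 61 peaks with a median p of 0.000709, and just outside it, at 5 to 5.1 kb, 59 peaks with a median p of 0.000558. The N2A list held 7 and 12 peaks in the same intervals.

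**Figure D1:**
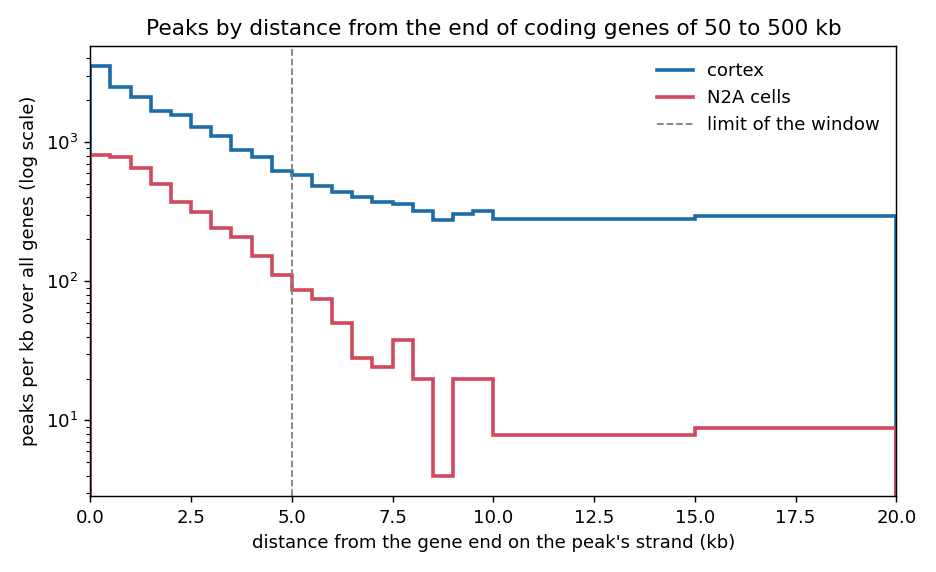
Number of peaks per kb, summed over the coding genes of 50 to 500 kb (vertical, log scale), by distance of the peak's midpoint from the gene end on its own strand (horizontal, kb), for the cortex list and the N2A list, with a dashed line at 5 kb. Both lists are densest in the first 0.5 kb, at 3500 and 810 peaks per kb, and decline without a step at the line.

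The position within the window was much alike in both lists. The median distance from the end was 1.48 kb in cortex, with quartiles of 0.596 and 2.74 kb, and 1.35 kb in N2A, with quartiles of 0.623 and 2.49 kb. Within 1 kb of the end lay 37.4% (36.3 to 38.4) of the cortex and 38.4% (36.3 to 40.5) of the N2A gene-end peaks. Within 2 kb lay 61.0% (59.9 to 62.0) and 66.3% (64.2 to 68.3). A midpoint past the annotated end was rare, at 17 cortex peaks by at most 25.5 nt and 2 N2A peaks by at most 13 nt, because a peak has to overlap the span. The opposite end of the genes, likewise read on the peak's own strand, held far fewer peaks. A peak at the true gene end but on the strand opposite to its gene would be counted there. In the first 5 kb lay 1777 cortex peaks, which is 3.63% (3.47 to 3.8) of the cortex peaks of these genes, and 47 N2A peaks, which is 1.64% (1.23 to 2.17).

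The share of gene-end peaks among all peaks of these genes differed widely between the lists. It was 16.3% (16 to 16.7), 8003 of 48979, in cortex and 72.0% (70.3 to 73.6), 2066 of 2869, in N2A. The cortex list holds many more peaks, so the strongest 2869 cortex peaks of these genes, those with a p of at most 8.25e-16, were also counted. Of these, 1641 were gene-end peaks, which is 57.2%. The gap was narrower in this count, but these cortex peaks were picked for strength, and the cortex share rises with strength. With a p under 0.01 in both lists the shares were 23.3% in cortex and 78.2% in N2A. The part of depth in the gap was not tested.

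Gene-end peaks were the stronger peaks of their genes. In cortex their median p was 0.00019, against 0.0151 for the other peaks, and in N2A 0.00492 against 0.0199. A p under 1e-10 was held by 27.3% (26.3 to 28.3) of the cortex gene-end peaks and 5.3% (5.08 to 5.52) of the other cortex peaks. In N2A these shares were 12.2% (10.9 to 13.7) and 4.61% (3.36 to 6.29). Among the strongest peaks of all, with a p listed at 0, 24 cortex peaks were gene-end peaks and 2 were other peaks of the same genes.

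The share of gene-end peaks followed peak strength closely in cortex. It was 8.61% (8.12 to 9.14) among cortex peaks with a p of 0.05 or more, 25.5% (24.3 to 26.8) between 1e-10 and 1e-05, and 80.4% (75.4 to 84.7), 222 of 276, under 1e-100. In N2A it was already 62.6% (58.8 to 66.3) in the weakest class and reached 100% in the strongest, which held 9 peaks. The weakest cortex peaks of long genes were thus mostly away from the gene end, and the strongest were mostly at it.

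**Figure D2:**
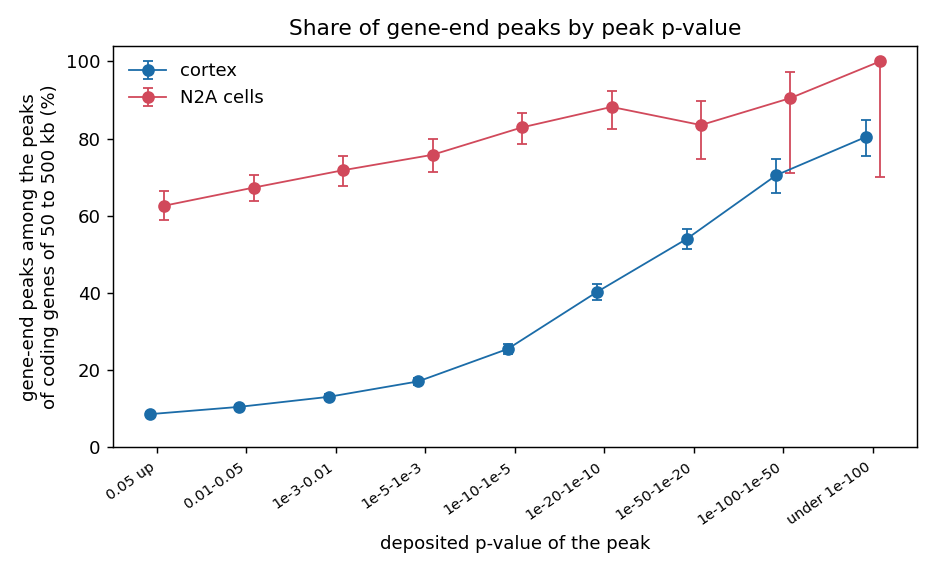
Share of gene-end peaks among all peaks of coding genes of 50 to 500 kb (vertical, percent, with Wilson 95% intervals) by class of the deposited p-value (horizontal, weakest left), for each list. Cortex runs from 8.61% to 80.4%, and N2A lies between 62.6% and 100%.

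Strength was somewhat lower at the far side of the window in cortex. In cortex the share of gene-end peaks with a p under 1e-10 was 28.6% (27.0 to 30.2) in the last 1 kb and 23.6% (20.7 to 26.9) at 4 to 5 kb. In N2A it was 11.1% (9.1 to 13.5) and 8.4% (4.75 to 14.4) at the same distances, intervals that overlap. The strongest gene-end peak of a gene lay at a median of 1.12 kb from the end in cortex and 1.19 kb in N2A.

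Among genes that had both gene-end and other peaks, the lowest p belonged to a gene-end peak in 62.9% (60.9 to 64.9) of the 2174 cortex genes, although gene-end peaks were 18.1% of their peaks. In N2A it did so in 74.5% (68.2 to 80.0) of 208 genes, where gene-end peaks were 61.7% of the peaks. In 205 cortex genes and 679 N2A genes every peak was a gene-end peak. Conversely 892 cortex genes and 231 N2A genes had peaks but none at the end.

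The assembly holds 21900 protein-coding genes, 4718 of them of 50 to 500 kb. A gene-end peak was present in 2379 of these in cortex, which is 50.4%, and in 887 in N2A, which is 18.8%. These percentages are the background against which the gene groups below are read. Among genes with any peak in the list, the shares were 72.7% (71.2 to 74.2) of 3271 and 79.3% (76.9 to 81.6) of 1118.

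Several gene-end peaks per gene were common. The median was 3 per gene in cortex and 2 in N2A, with a highest number of 15 and 14. A single gene-end peak was found in 27.1% (25.4 to 28.9) of the cortex genes and 46.1% (42.9 to 49.4) of the N2A genes. Genes with 5 or more made up 26.3% of the cortex genes but held 52.7% of the cortex gene-end peaks. In N2A they were 10.9% of the genes with 31.4% of the peaks. No gene dominated a list, as the largest share held by 1 gene was 0.187% in cortex and 0.678% in N2A.

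Gene-end peaks of a gene on the same strand all lie within the window, so the rule bounds their spacing. The smallest distance between neighbouring midpoints was 70.5 nt in cortex and 38 nt in N2A, where some neighbours therefore shared bases. The median distance between neighbouring midpoints was 481 nt in cortex, with quartiles of 281 and 843 nt, and 398 nt in N2A, with quartiles of 214 and 780 nt. Neighbours within 200 nt made up 13.8% of 5612 cortex pairs and 22.2% of 1179 N2A pairs. In genes with more than 1 gene-end peak, the first and the last were a median of 2.03 kb apart in cortex and 1.14 kb in N2A.

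Longer genes had a smaller share of their peaks at the end. The window is 5 kb at any gene length, so it covers a smaller part of a longer gene, which by itself lowers this share. In cortex the share went from 23.4% (22.8 to 24.1) in genes of 50 to 100 kb to 8.05% (7.42 to 8.72) in genes of 350 to 500 kb. In N2A it went from 76.9% (74.8 to 78.9) to 46.9% (38.6 to 55.5). The share of genes with a gene-end peak went opposite ways in the lists. In cortex it was 47.0% (45.0 to 48.9) in the shortest and 66.3% (59.7 to 72.4) in the longest class, and in N2A 20.7% (19.2 to 22.3) and 12% (8.28 to 17.1). No test of these trends was run.

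**Figure D3:**
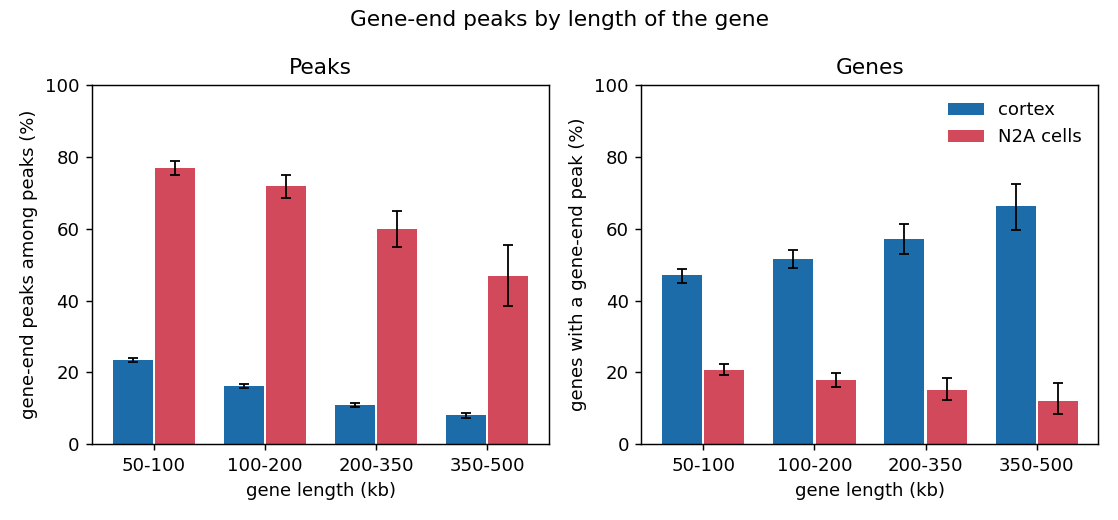
Left, share of gene-end peaks among the peaks of coding genes (percent), and right, share of genes with at least 1 gene-end peak (percent), by gene length class (horizontal, kb), with Wilson 95% intervals. On the left both lists decline with length, and on the right cortex goes from 47.0% to 66.3% while N2A goes from 20.7% to 12%.

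In cortex 24 gene-end peaks were listed with a p of 0, and these have no order among them. Rmnd5a, a subunit of the CTLH ubiquitin ligase complex, had 9 gene-end peaks among 22 cortex peaks. Its strongest lay at chr6:71391249-71391300 on the minus strand, 2.64 kb before the end, and a second, at 4.0 kb, had a p of 4.29e-284. Its N2A peaks were all 7 at the gene end, 3 of the 9 cortex ones overlapping them, but the N2A peak at 2.64 kb had a p of only 0.000142 and the strongest lay at 1.59 kb. Qk encodes the STAR-family splicing and mRNA stability factor Quaking. Of its 94 cortex peaks 7 were at the end, the strongest at chr17:10210627-10210677, 4.18 kb before it. In N2A all 7 peaks of Qk were at the end, and the strongest, with a p of 1.45e-22, lay at 0.95 kb over a cortex peak. The strongest sites of Qk in the lists were thus 3231 nt apart.

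Further cortex gene-end peaks listed at 0 lay in genes of signalling and of myelin. Sgk1, a serum- and glucocorticoid-regulated kinase, had 3 of its 10 cortex peaks at the end, the strongest 0.615 kb from the end. Its only N2A peak, with a p of 0.0621, lay 8 nt from that site. Mbp, which encodes myelin basic protein of oligodendrocytes, had 3 of 11, the strongest 0.365 kb from the end.

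The 5 genes named for a strong cortex gene-end peak and no N2A peak at all also had a p of 0. Mbp and Itpr1 likewise had a cortex gene-end peak listed at 0 and no N2A peak, and were left out by the order used for ties. Atp2b2, a plasma membrane calcium pump, had 4 gene-end peaks at 0.714, 1.3, 3.31 and 3.73 kb, the last 2 both listed at 0. Ncald, a neuronal calcium sensor, had 4 of 14 peaks at the end, the strongest at 2.5 kb. Slc1a2, the main glutamate transporter of astrocytes, had 4 of 17, with a peak listed at 0 both at the end, at 2.93 kb, and farther inside the gene. Sv2b, a synaptic vesicle glycoprotein, had 4 of 40, the strongest at 0.202 kb. Ank3, the ankyrin of the axon initial segment, had only 3 gene-end peaks among 96, yet its strongest, at 3.13 kb, was listed at 0 while its best other peak had a p of 1.97e-32.

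The genes with the most cortex gene-end peaks were not those with the lowest p. Rc3h1, the mRNA decay factor Roquin-1, had 15, spread from 0.197 to 4.99 kb, with p-values from 4.86e-15 to 0.0971. Slc16a7, a monocarboxylate transporter, also had 15, the strongest at 1.79e-08. Atxn1, the ataxin-1 gene, had 14, the strongest at 5.46e-109 and 4.77 kb from the end. Fam126b, Scai, Arhgef12 and Ttbk2 had 13 each, and Etv1, Bicd1 and Gda had 12 each. Of these, Etv1, a transcription factor of the ETS family, had the lowest p, 2.28e-169, at chr12:38870079-38870130, 0.379 kb from the end. Gda, the guanine deaminase gene, had 12 of its 14 cortex peaks at the end.

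In N2A, Map1b had the lowest p of all gene-end peaks and the only one listed at 0. Map1b encodes a microtubule-associated protein of growing axons. Its strongest N2A site was chr13:99423965-99424016 on the minus strand, 2.53 kb before the end, and a cortex peak listed at 0 was 8 nt away at chr13:99423973-99424024. Around it N2A had 10 gene-end peaks from 0.641 to 4.37 kb, whereas cortex had 2, at 2.53 and 2.9 kb, both listed at 0. The remaining cortex peaks of Map1b, 22 of 24, lay farther inside the gene, the strongest of them with a p of 3.15e-89.

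Ncam1, the neural cell adhesion molecule, was next in N2A. Its 7 gene-end peaks included chr9:49502552-49502603 at 0.449 kb with a p of 2.99e-263 and a peak at 2.67 kb with a p of 2.12e-11. Cortex had gene-end peaks at the same places, at 0.452 kb with a p of 3.96e-87 and at 2.67 kb with a p of 2.32e-140. The order of these sites was therefore reversed between the lists. Between these sites the lists shared an overlapping peak, at 1.13 kb in cortex with a p of 3.7e-26 and at 1.12 kb in N2A with a p of 0.0048. From 1.62 to 2.46 kb N2A had 4 peaks and cortex none.

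Itga6, an integrin subunit that binds laminin, and Tgfbr1, a receptor of TGF-β, were also among the lowest p in N2A. All 8 N2A peaks of Itga6 were gene-end peaks, the strongest at chr2:71856248-71856299 with a p of 7.43e-145, while cortex had 2 peaks with p-values of 0.0515 and 0.0952. For Tgfbr1 all 5 N2A peaks were at the end, and the strongest, with a p of 5.23e-140 at 3.07 kb, lay 7 nt from the strongest cortex peak, whose p was 1.02e-06. Slc38a1, a glutamine transporter, had 8 of 10 N2A peaks at the end, the strongest at 2.28e-109. Acly, the enzyme that makes cytosolic acetyl-CoA from citrate, had all 4 at the end, the strongest at 9.72e-106.

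The genes with the most N2A gene-end peaks were Tnpo1, a nuclear import receptor, and Zdbf2, an imprinted zinc finger gene, with 14 each. Tnpo1 peaks spread from 0.147 to 4.88 kb, with p-values from 2.61e-53 to 0.0409, and cortex had 10 over the same stretch. In Zdbf2 all 9 cortex peaks were at the end, as were 14 of the 15 N2A peaks. Slc7a1, a transporter of cationic amino acids, had 13 in N2A against 3 in cortex, and Tcf4, a transcription factor of the E-protein family, also had 13 against 3. Tcf4 had 114 cortex peaks in all, so 111 of them lay outside the window. Dpysl2, a collapsin response mediator protein, had 10 in N2A against 1 in cortex.

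The place of the peaks could also differ where both lists had several. Msi2, the RNA-binding protein Musashi-2, had 11 N2A and 4 cortex gene-end peaks, and none overlapped. Its strongest cortex peak, with a p of 2.82e-289, lay at 3.05 kb, 112.5 nt from the strongest N2A peak, at 2.93 kb with a p of 3.19e-13.

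The lists shared most of the N2A genes. Of the 887 genes with an N2A gene-end peak, 808 also had one in cortex, which is 91.1% (89.0 to 92.8), and they were 34.0% (32.1 to 35.9) of the 2379 cortex genes. In all 808 the strongest peaks of the lists lay on the same strand, which the rule largely fixes by reading distance on the peak's strand. Cortex had more gene-end peaks in 526 of them, N2A in 137, and the numbers were equal in 145. With only the strongest 2869 cortex peaks of these genes, 52.6% of the N2A genes had a cortex gene-end peak.

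The shared genes were the stronger ones of both lists. In cortex the median of the best gene-end p was 2.1e-19 in the shared genes and 4.07e-07 in the 1571 genes of cortex alone. In N2A it was 0.00033 in the shared genes and 0.01 in the 79 genes of N2A alone. The shared genes had a median of 4 gene-end peaks in cortex, against 2 in the genes of cortex alone. Of the 1571 genes, 1448 had no N2A peak of any kind, and of the 79 genes, 33 had no cortex peak.

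At the level of single peaks the lists met less often. An N2A gene-end peak overlapped a cortex gene-end peak by at least 1 nt on the same strand in 41.2% (39.1 to 43.3), and 64.8% (62.7 to 66.8) had one within 200 nt. With only the strongest 2869 cortex peaks as partners the overlap was 18.2%. Of the cortex gene-end peaks, 10.6% (9.92 to 11.3) overlapped an N2A one. For other N2A peaks of these genes, the overlap with any cortex peak was 45.7% (42.3 to 49.2), close to that of the gene-end peaks. Other cortex peaks, by contrast, overlapped an N2A peak in 0.896% (0.809 to 0.992), and most N2A peaks of these genes lie at the end. Overlapping cortex peaks had a median p of 1.64e-12 and the rest 0.000448, while overlapping N2A peaks had a median p of 0.00283 and the rest 0.00723.

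Of the N2A gene-end peaks without an overlap, 90.2% (88.4 to 91.8) lay in a gene that had cortex gene-end peaks elsewhere. In the shared genes the strongest peaks of both lists lay a median of 223 nt apart. They were within 50 nt in 34.5% (31.3 to 37.9) and within 500 nt in 64.2% (60.9 to 67.5). At least 1 overlapping pair was present in 71.9% (68.7 to 74.9).

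The 10 genes that ranked highest in both lists showed this range. In Tspan7, a tetraspanin, a cortex peak listed at 0 and an N2A peak with a p of 1.35e-177 lay 11.5 nt apart, 0.492 and 0.481 kb from the end. Aplp2, an amyloid precursor-like protein, had its strongest peaks 13.5 nt apart and Gnb1, a G protein β subunit, 21.5 nt apart. In App, the amyloid precursor protein gene, no gene-end peak overlapped and the strongest, at 2.14 and 2.26 kb, were 121 nt apart.

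In the other genes of this set the strongest peaks were farther apart. The distance was 134 nt in Rtn3, a reticulon of the endoplasmic reticulum, and 161.5 nt in Pik3r1, the regulatory p85α subunit of PI3 kinase. It was 392 nt in Rab10, a small GTPase of membrane traffic, 458 nt in Nmnat2, an axonal NAD-synthesising enzyme, and 496.5 nt in Celf1, an RNA-binding protein. In Rab10 all 3 cortex gene-end peaks overlapped an N2A one, and 3 of the 5 N2A ones overlapped a cortex one. The strongest site was not the same in both lists.

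**Figure D4:**
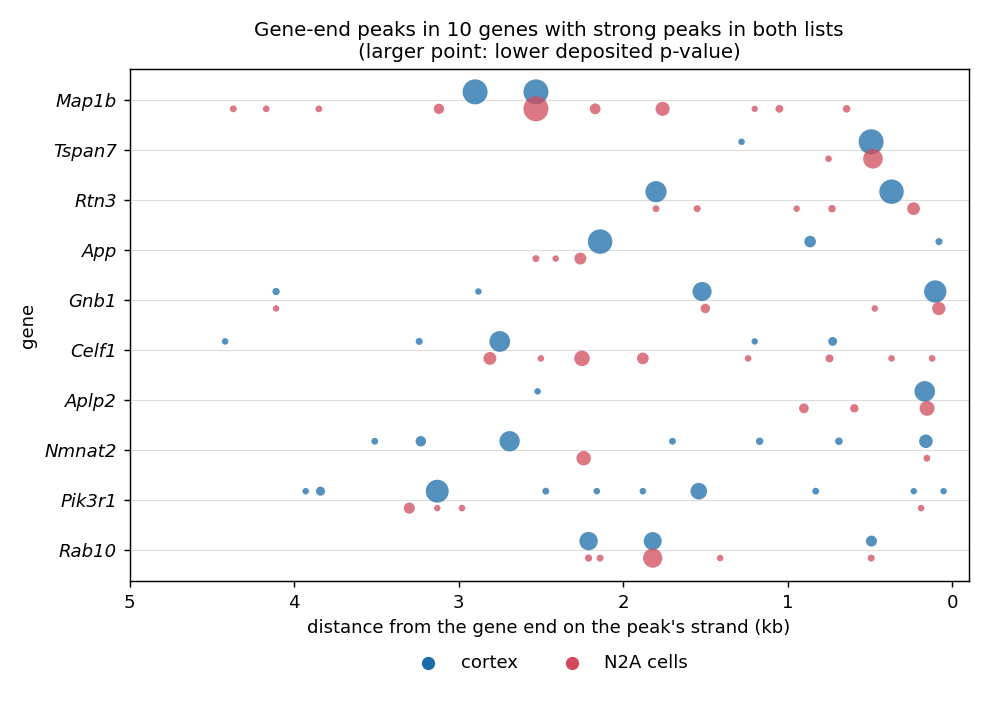
Gene-end peaks of the 10 genes with the lowest summed ranks in both lists, by distance of the midpoint from the gene end (horizontal, kb, end at the right), cortex above and N2A below each line, with larger points for lower deposited p-values. In Tspan7, Aplp2 and Gnb1 the largest points of both lists are within 21.5 nt, and in Celf1 they are 496.5 nt apart. In Map1b the largest N2A point is 8 nt from 1 of the 2 cortex points, both listed at 0.

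Of the genes with an N2A gene-end peak and none in cortex, Ddr2, a collagen receptor kinase, came first, with 4 of its 5 peaks at the end and a p of 8.75e-53 at chr1:169975925-169975976. Ibtk followed with a p of 4.14e-31. Rad18, a ubiquitin ligase of DNA damage tolerance, and Baiap2l1, an actin regulator, had p-values of 1.38e-25 and 6.29e-23. Ddr2, Rad18 and Baiap2l1 had no cortex peak anywhere. Epb41, the membrane skeleton protein 4.1R, differed from them. It had 29 cortex peaks, the strongest with a p of 8.98e-64, yet none at the end, whereas all 3 N2A peaks were gene-end peaks.

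The balance between gene end and interior varied as much among cortex genes. Every cortex peak was a gene-end peak in Sema3e, a secreted axon guidance protein, with 9, in Plcxd2 and Slc6a5, a glycine transporter, with 7 each, and in Brd3, a bromodomain protein, with 6. At the other extreme, Rims2, a scaffold of the presynaptic active zone, had 4 gene-end peaks among 229, and its best other peak, with a p of 3.87e-87, was stronger than its best gene-end peak, with a p of 8.38e-36. Ncam2 had 2 of 147 and Stxbp5l, tomosyn-2, 5 of 149, again with stronger peaks inside the gene. Oxr1 differed in this, with 3 gene-end peaks of 132 and a best p of 9.82e-177 against 2.63e-67 for its other peaks.

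The gene groups that follow were picked by function with earlier results of these data known, so they describe the lists and support no claim of enrichment. Where all genes of 50 to 500 kb had a gene-end peak in 50.4% in cortex and 18.8% in N2A, the 15 functional groups had one in 75% to 100% in cortex and in 0 to 70.8% in N2A. Over all such genes the median best p was 1.91e-10 in cortex and 0.000507 in N2A.

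**Figure D5:**
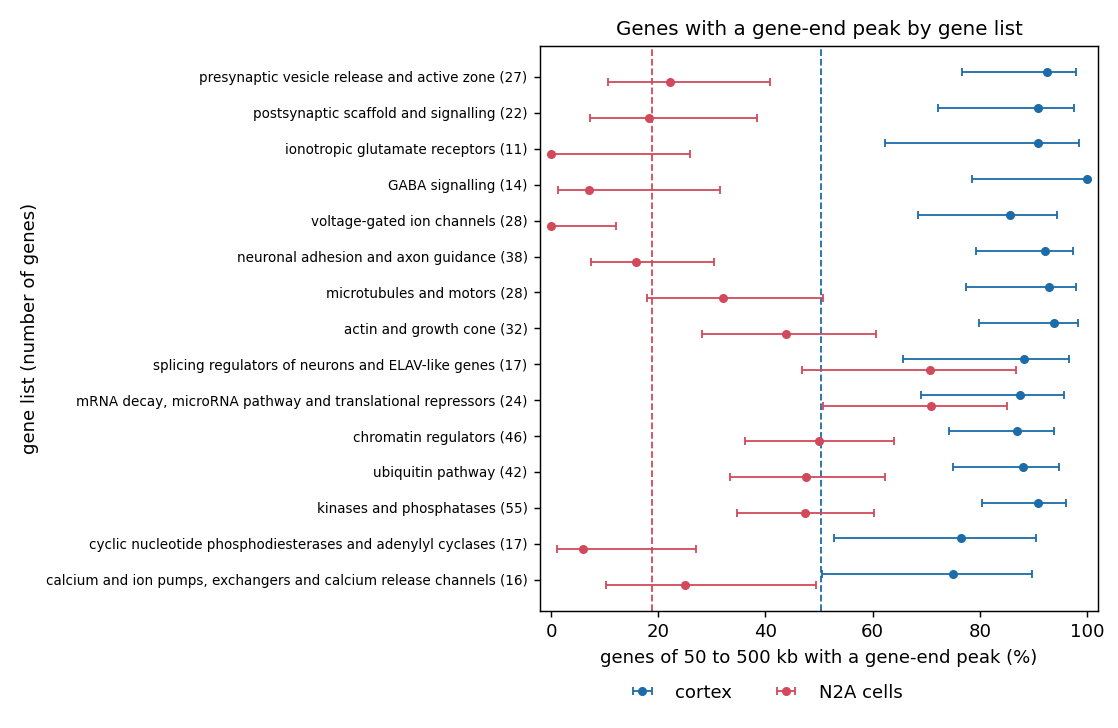
Share of genes of 50 to 500 kb with a gene-end peak (horizontal, percent, Wilson 95% intervals) in 15 functional groups, with the number of genes in brackets, for both lists. Dashed lines mark the share over all such genes, 50.4% in cortex and 18.8% in N2A. All cortex points lie above their line, and N2A points run from 0 to 70.8%.

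Genes of the synapse nearly all had a cortex gene-end peak, and in N2A their share was near the 18.8% over all genes. Of 27 presynaptic genes of this length 25 had a cortex gene-end peak, with a median best p of 2.05e-60, and 6 had one in N2A, which is 22.2% (10.6 to 40.8). Snap25, a SNARE protein of vesicle fusion, had 2 of 37 cortex peaks at the end, the strongest listed at 0 at chr2:136781437-136781488. Both its N2A peaks were there too, the stronger, with a p of 3.71e-11, 90 nt away. Cplx2, complexin 2, had 7 of its 9 cortex peaks at the end, the strongest with a p of 3.48e-240. Of 22 postsynaptic genes 20 had one in cortex and 4 in N2A, which is 18.2% (7.31 to 38.5). Camk2a, a kinase of excitatory synapses, had 5 of 11 cortex peaks at the end with a best p of 1.19e-279, and Shank1, a postsynaptic scaffold, had 3 of 8 with 3.05e-210.

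Receptors and channels were seen in cortex with hardly any N2A peak, though the upper limits of the N2A shares were 25.9% for glutamate receptors, 31.5% for GABA signalling and 12.1% for channels, and only the last is under the 18.8% over all genes. Gene-end peaks were present in 10 of 11 ionotropic glutamate receptor genes in cortex and 0 in N2A, Grik5 being the one without in cortex. Gria2, an AMPA receptor subunit, had 11, from 0.144 to 4.89 kb, the strongest at 4.66 kb with a p of 3.84e-170. Gria3 had 5 with a best p of 3.14e-260, 0.16 kb from the end. Grin2a, an NMDA receptor subunit, had 8 with a best p of 1.71e-80, weaker than its best peak inside the gene, 1.39e-102.

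All 14 genes of GABA signalling had a cortex gene-end peak, and 1 had one in N2A. Gabrb1, a GABA-A receptor subunit, had 9 in cortex with a best p of 2.5e-248. Of 28 voltage-gated channel genes 24 had one in cortex and 0 in N2A. Those without in cortex were Scn9a, Kcnip3, Kcnip1 and Cacna1h. Cacna1a, a calcium channel pore subunit, had its strongest at 0.0915 kb with a p of 3.17e-280.

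Adhesion and cytoskeletal genes also had cortex gene-end peaks in most cases, and their N2A shares ran from 15.8% to 43.8%. Of 38 adhesion and guidance genes, 35 had one in cortex and 6 in N2A. Ptprs, a receptor tyrosine phosphatase of axons, had its strongest cortex peak, listed at 0, 10.5 nt from an N2A peak with a p of 0.000613. Of 28 microtubule and motor genes, 26 had one in cortex and 9 in N2A. Kif5c, a kinesin heavy chain, had 3 in cortex, each overlapping one of its 8 N2A peaks, all of which were gene-end peaks. The strongest, with p-values of 6.12e-271 and 6.62e-30, were 18 nt apart. Pafah1b1, the dynein regulator Lis1, had its strongest cortex peak, listed at 0, at 0.691 kb and its strongest N2A peak at 2.1 kb. Of 32 actin and growth cone genes, 30 and 14 had one. Actr2, of the Arp2/3 complex, had p-values of 2.52e-208 and 1.87e-45 at sites 81.5 nt apart.

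Genes for RNA-binding proteins and mRNA decay had the highest N2A shares. Of 17 splicing regulators and ELAV-like genes, 15 had a gene-end peak in cortex and 12 in N2A, which is 70.6% (46.9 to 86.7). Elavl2 and Mbnl3 had none in cortex. Rbfox2, a splicing factor, had 8 in cortex and 4 in N2A, the strongest 26 nt apart, but its best cortex peak lay inside the gene, at 7.39e-131 against 4.42e-105. Celf4, whose strand is not annotated here, had 11 of its 17 cortex peaks under the rule, 10 of them on the minus strand and 1, with a p of 0.0362, on the plus strand at the far side of the span. Of 24 genes of mRNA decay, the microRNA pathway and translational repression, 21 had one in cortex and 17 in N2A, which is 70.8% (50.8 to 85.1). Ago2, the slicing Argonaute, had 7 in cortex and 6 in N2A, with best p-values of 4.25e-19 and 5.15e-22. Pan3, of a deadenylase complex, had its strongest peaks 3.5 nt apart, and Larp4b had 9 N2A peaks at the end against 5 in cortex.

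Chromatin, ubiquitin and kinase genes, which many cell types use, had N2A shares of 47.3% to 50%. Of 46 chromatin regulators, 40 had a cortex and 23 an N2A gene-end peak. Arid1a, a subunit of the BAF complex, had 3 and 4, and Tet3, a 5-methylcytosine oxidase, had 5 and 4. Of 42 genes of the ubiquitin pathway, 37 and 20 had one. Ubr3, a ubiquitin ligase, had its strongest peaks 2 nt apart, with p-values of 3.63e-128 and 1.8e-21. Of 55 kinase and phosphatase genes, 50 and 26 had one. Ppp3ca, the catalytic subunit of calcineurin, had 8 cortex gene-end peaks, the strongest, with a p of 2.97e-316 at chr3:136935226-136935276, offset by 1 nt from the only N2A peak of the gene. The cyclic nucleotide enzymes had one in 13 of 17 and 1 of 17, the latter being Pde5a. Pumps, exchangers and calcium release channels had one in 12 and 4 of 16.

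Marker genes of any length were looked up in both lists as a description of the labelled tissues. Cortex peaks of any kind lay in 5 of 5 markers of excitatory neurons, 4 of 6 of interneurons, 4 of 5 each of astrocytes and oligodendrocytes, 1 of 5 of microglia, 2 of 5 of endothelium and 3 of 9 sympathoadrenal genes. N2A peaks lay in 6 of 9 sympathoadrenal genes and in none of the brain cell type markers. Of the 4718 coding genes of 50 to 500 kb, 3271 had a cortex peak of any kind and 1118 an N2A peak. The share over coding genes of any length was not computed, and the N2A list is much shorter. The marker counts therefore cannot be weighed against a background. Gene-end peaks in cortex included the astrocyte markers Slc1a2 and Slc1a3 and the oligodendrocyte marker Mbp. Which cells a peak came from was not tested. Lin28b, a repressor of let-7 maturation, had 3 gene-end peaks of 4 in N2A, the strongest with a p of 9.77e-30, and 1 in cortex with a p of 0.0896.

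Few gene-end peaks lay on the strand opposite to their gene, which the rule largely fixes. RefSeq gave a strand for 78.2% of the genes, and of the gene-end peaks in these, 15 of 6318 in cortex and 0 of 1642 in N2A lay on the opposite strand. Since distance is read on the peak's strand, those 15 lie at the start of their gene. A peak on the opposite strand at the true gene end could not meet the rule, so these counts say nothing of such peaks. In genes without an annotated strand, 4 of 1685 cortex and 0 of 424 N2A gene-end peaks lay opposite to most peaks of the gene. The strongest, chosen after its value was seen, was in Cnnm2 at chr19:46760710-46760760 on the minus strand with a p of 3.59e-22.

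Ube3a, the ubiquitin ligase gene imprinted in neurons, had 9 cortex peaks under the rule, of which 2 were on the opposite strand, with p-values of 0.0478 and 0.0388. The other 7 and all 8 N2A ones lay on the gene's strand from 0.063 to 4.95 kb. The strongest cortex peak within its span, with a p of 1.68e-203, lay outside the window, against 6.6e-51 at the end. That peak was taken from either strand, so it need not belong to Ube3a. The span of the noncoding gene Snhg14 was also touched by 7 of the cortex gene-end peaks and by all 8 N2A ones.

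A span of a noncoding gene was also touched by 4.3% (3.88 to 4.77) of the cortex and 3.53% (2.82 to 4.42) of the N2A gene-end peaks, of which 326 and 70 were in lncRNA genes. Such peaks cannot be assigned to either gene from the span alone.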

How the data were processed

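Both deposited lists hold positions, strands and a p-value from the authors' calling, at most 0.0999. The sources used here do not name the caller, its filters or any adjustment, or say whether the 3 cortex samples were merged. Novoalign and hg19 stand in the submitters' processing notes, but chromosome names and gene positions are those of mouse GRCm38, and coordinates are printed as deposited, without a stated base.

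Gene spans, types and lengths came from RefSeq GRCm38.p6, and gene strand from its promoter table. Peaks were assigned with Python 3.11.15 and pandas 2.3.3, as checked on simulated peaks. All deposited peaks were used, and no test was run. Planned motif counts were not run, since no genome was used here.

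The members, gene groups and rules were chosen with earlier results of these data known. Named genes were, per list, the 10 with the lowest gene-end p and the 10 with the most gene-end peaks. Ties in p were ordered by number of gene-end peaks, then by symbol. Across lists they were the 10 with the lowest summed ranks, the 5 strongest of each list without the other, the 5 with only gene-end peaks and the 5 with the most other peaks. Each of 22 gene groups, with 631 entries, added 4 genes by cortex and 2 by N2A p. Alternatives were a p under 0.01, windows of 2 and 10 kb, the majority strand, genes of 100 to 500 kb, other overlaps and equal peak numbers. Some genes that this rule picks are not reported here.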

Additional observations from a re-analysis of the deposited data

How the results depend on the processing

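Among the recomputed values, 31 stayed within the interval or the 1.5-fold limit of the reported one and 27 moved, all without a test. With peaks of p under 0.01, the share of gene-end peaks was 23.3% in cortex and 78.2% in N2A, the share of genes with one 43.5% and 13.2%, the share in the stronger 50% of the list 99.4% and 91.2% (reported 69.5% and 51.9%, high by construction), and the N2A number 1176. With a window of 2 kb the numbers were 4879 and 1369, the shares 9.96% and 47.7%, the gene shares 45.0% and 15.1%, and the cortex stronger share 71.6%. With 10 kb the shares were 20.3% and 78.4%, the cortex gene share 52.9% and its stronger share 66.8%. Genes of 100 to 500 kb gave 12.8% and 65.7%. The majority strand gave a cortex gene share of 46.0% and a shared gene share of 94.6%. Overlap of at least 50% of the N2A peak gave 34.6%, and midpoints within 200 nt 64.8%. Equal numbers of the strongest cortex peaks, chosen after seeing the data, gave a share of 57.2%, an overlap of 18.2% and a shared gene share of 52.6%. No paired analysis was possible because each group has 1 pooled list without columns per sample, and for the same reason no sample could be left out. Depth is unknown, so a gene without a gene-end peak is only without a listed one.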

Other observations

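Some gene-end peaks also touched noncoding genes, and the genes named here were chosen after their values were seen. In cortex 13 gene-end peaks of Fam126b, with a lowest p of 1.21e-59, lay in the span of Gm15834, and 11 of Med13 in that of Brip1os. In N2A 8 gene-end peaks of Ube3a lay in the span of Snhg14, 8 of Reep3 in that of Gm31763 and 5 of Rab10 in that of Rab10os, the last with a lowest p of 4.39e-171. The strand of these noncoding genes was not compared with that of the peaks.

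In 13 cases the lists held the same gene-end interval exactly.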
